A study of Homo sapiens with 30 samples.

Results

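The genes that build and steer the spliceosome were examined as targets of transcriptome-wide adenosine editing in HEK 293T cells, an established human embryonic kidney line. A gene was taken when it is annotated as protein-coding in GENCODE release 29 (GRCh38) and its symbol starts with HNRNP, SRSF, SNRP, SF3A, SF3B or PRPF, read-through genes excluded. Of 382978 sites in the deposited tables, 5661 lay in exons of these genes. They fell in 66 of the 72 annotated genes: 2394 sites in 22 HNRNP genes, 983 in 12 SRSF genes, 371 in 11 SNRP genes, 406 in 3 SF3A genes, 578 in 6 SF3B genes and 929 in 12 PRPF genes. PRPF40B, SNRPN, HNRNPCL1, HNRNPCL2, HNRNPCL3 and HNRNPCL4 had no site. Exons of 1 gene only held 5243 of the sites, and exons of another gene also covered the other 418.

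Splicing is carried out by small nuclear ribonucleoproteins, RNA and protein particles that recognise the ends of an intron and assemble on it. SNRP genes encode their Sm and particle-specific proteins. SF3A and SF3B are the protein complexes that seat the U2 particle on the branch point, and PRPF genes encode mostly proteins of the tri-snRNP and of the catalytic core, with PRPF8 at its centre. SR proteins (SRSF) carry tails rich in arginine-serine dipeptides and mostly favour exon inclusion, whereas hnRNP proteins (HNRNP) coat nascent RNA and often oppose it. Many SR and hnRNP genes regulate their own level through alternative exons that send the message to nonsense-mediated decay. ADAR enzymes deaminate adenosine to inosine, which is read as guanosine in sequencing, and so change codons or leave them synonymous.

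Poly(A) RNA was sequenced as 100 bp paired reads, from 300 ng of RNA per library, with cells taken 60 h after transfection. The comparison set comprised 16 libraries of MCP, the phage coat protein that binds MS2 hairpins, joined to the ADAR1 or ADAR2 deaminase domain (DD). These fusions combined a wild-type or hyperactive domain (E1008Q in ADAR1, E488Q in ADAR2), a nuclear export (NES) or nuclear localisation (NLS) signal, and the absence or presence of the MS2 adRNA, the guide that carries such hairpins. A further 4 libraries held full-length ADAR2, wild type or E488Q, without or with the GluR2 adRNA. The remaining 2 deaminase libraries held Cas13b, an RNA-guided protein, fused to ADAR2 DD (E488Q), without or with its gRNA. Controls were GFP, each of the 3 guides alone (MS2 adRNA, GluR2 adRNA and gRNA), and untransfected cells. The untransfected samples were repeat sequencing runs of the same library, of which 3 were used and 1 was not analysed here. The constructs were overexpressed from transfected DNA, so shares describe all cells of a dish, transfected or not. Each condition had 1 library, so no value has a replicate error, and every SD given here is over matched pairs of constructs or over libraries. The tables give no read depth and no expression level. Confidence intervals of editing shares could therefore not be given, and marker genes of the cell line could not be checked.

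The sequences below carry the main contrasts. Each is the transcript strand 5′ to 3′ in GRCh38 with the site in capitals, 12 bases on either side, named by the gene and the codon change that A-to-G editing would make. SNRPB encodes the Sm protein B/B′, and 3 of its sites, within 126 nt of each other on the message, responded to different constructs. T143A lies at chr20:2463221, A154A 35 nt downstream at chr20:2463186 and R112R 91 nt upstream of T143A at chr20:2463831, all on the minus strand. The T143A window spans an exon junction.
SNRPB R112R: ggctgctggcagAggaatcccagct
SNRPB T143A: caacaggtgatgAccccacaaggaa
SNRPB A154A: tgcagccgctgcAgctgctgccaca

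HNRNPU encodes a large RNA-binding protein of the nuclear matrix. Its sites Q172R (chr1:244863793) and T191A (chr1:244863737, 56 nt downstream, minus strand) are shown because they differed in opposite directions between ADAR1 and ADAR2. HNRNPUL1 encodes a related protein, and its sites P704P (chr19:41304111) and P706P (chr19:41304117, plus strand) are 6 nt apart. PRPF8 sites A786A (chr17:1676535) and Y794C (chr17:1676512, minus strand) are 23 nt apart, and the Y794C window spans an exon junction. SF3A1 Q517R (chr22:30338982, minus strand) is shown for a large ADAR1 excess.
HNRNPU Q172R: cgcagcagcaacAgccccaacagca
HNRNPU T191A: agcagcggccccAcctcgctgttcg
HNRNPUL1 P704P: gcctccgccaccAcagccaccaccc
HNRNPUL1 P706P: gccaccacagccAccaccccagcag
PRPF8 A786A: ctatctgaaggcAgaacaggagcgg
PRPF8 Y794C: ggcagcacaactAcctgaaggacgg
SF3A1 Q517R: agcaggctgcccAggccaacatcac

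Sites in exons that no protein-coding transcript uses, and sites in RS dipeptides, form the remaining sequences. SRSF3 chr6:36599864 (plus strand), SRSF7 chr2:38748955 (minus strand) and HNRNPH1 chr5:179619617 (minus strand) are of the first kind, with the SRSF3 and SRSF7 sites in transcripts annotated for nonsense-mediated decay. The HNRNPH1 site was read on a retained-intron transcript. SRSF4 R487G (chr1:29148436, minus strand) and SRSF6 R329G (chr20:43461013, plus strand) change an arginine of an RS dipeptide. Both kinds were chosen after their values were seen.
SRSF3 alternative exon: tgaatctgcattAgccagtcaacta
SRSF7 alternative exon: atagatacttctAgatcgtctagat
HNRNPH1 noncoding exon: tttttaatatatActgtaccatggg
SRSF4 R487G: ccctcccgatctAgatctaggtccc
SRSF6 R329G: agatcccgttctAgatctcgctcaa

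The splicing genes were edited by every construct. Here a called site has a share of reads with G above the untransfected mean and, in the authors' deposited table, an adjusted p-value under 0.01. Called sites numbered from 69 with wild-type full-length ADAR2 without guide, 1.22% of the splicing-gene sites against 1.5% of all sites, to 3592 with MCP-ADAR1 DD (E1008Q)-NES without guide, 63.5% against 59.2%. No splicing-gene site was called in the 7 control samples. Of all sites, 0%, 0.000261% and 0.00104% were called in the untransfected runs, 0.00157% with GFP, 0.00366% with the MS2 adRNA alone, 0.0047% with the GluR2 adRNA alone and 0.00601% with the gRNA alone. At least 1 deaminase library called 5658 of the 5661 sites. The same share over all sites was not taken, and how the listed sites were selected is not known. This count is therefore not read as a trait of the splicing genes.

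Among the MCP-ADAR1 libraries with NES, the wild-type domain had 40.5% of splicing-gene sites called without guide, against 30.3% of all sites, and 35.7% with guide, against 26.4%. E1008Q with guide had 54.0%, against 51.1%. With NLS, wild-type MCP-ADAR1 had 9.15% without and 13.1% with guide, against 5.35% and 7.45%, and E1008Q had 29.5% and 34.9%, against 23.5% and 28.9%. All 8 ADAR1 fusions were thus above the level of all sites. Wild-type MCP-ADAR2 with NES had 2.83% and 6.06% (without and with guide), against 2.48% and 5.29%, and with NLS 1.59% and 2.03%, against 0.982% and 1.24%. MCP-ADAR2 E488Q had 9.52% and 11.6% with NES, against 9.21% and 11.2%, and 8.53% and 11.6% with NLS, against 7.32% and 9.94%. Full-length ADAR2 with guide had 4.98%, against 4.85%, and its E488Q form 7.37% and 33.5%, against 6.72% and 32.7%. The Cas13b fusion had 30.2% without and 14.7% with gRNA, against 29.5% and 12.9%. In percentage points, the ADAR2-based constructs lay nearer to the level of all sites than the wild-type ADAR1 fusions did. As a ratio, wild-type MCP-ADAR2 with NLS lay farther from that level than wild-type MCP-ADAR1 with NES.

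Splicing-gene sites were called a little more often but edited to lower shares than sites at large. Their percent called lay above that of all sites in 21 of 22 deaminase libraries, the exception being wild-type full-length ADAR2 without guide. Their mean share lay below that of all sites in 22 of 22 libraries, where it ranged from 0.496% to 6.37%. All sites averaged 1.66 to 2.42 times as much, with a median of 1.97 times. In the untransfected runs the mean share of splicing-gene sites was between 0.132% and 0.139%, and in the other controls between 0.134% and 0.142%. The called splicing-gene sites had median shares of 2.83% to 5.69% by library, against 5.62% to 15.8% for all called sites. Read depth per site is unknown, so equal precision of these shares cannot be assumed.

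**Figure D1:**
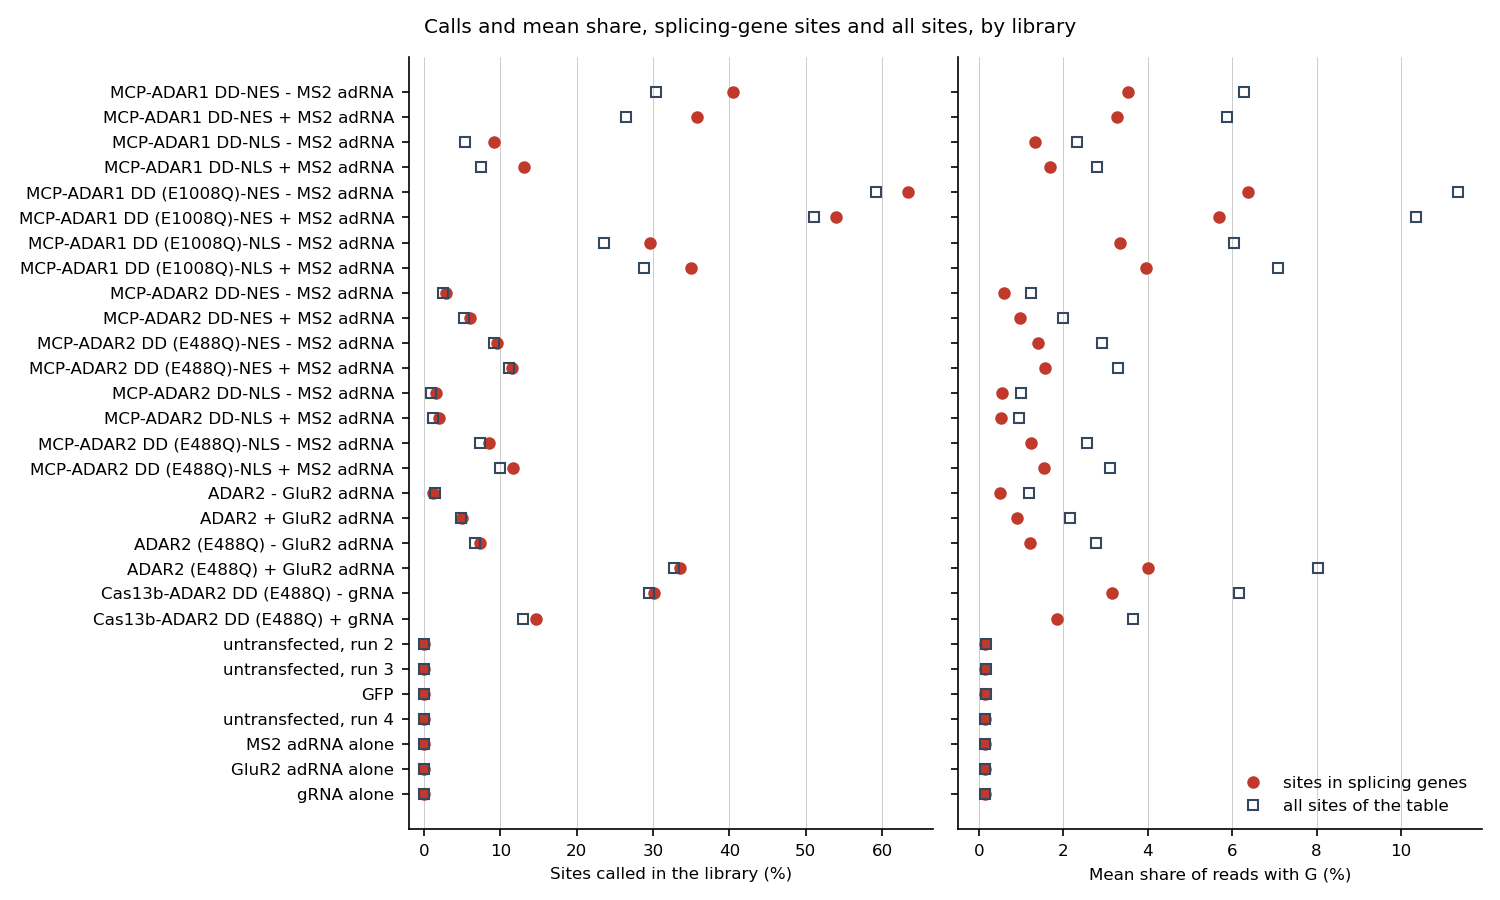
Percent of sites called edited (left) and mean share of reads with G in percent (right) in each of the 29 libraries, for the 5661 splicing-gene sites (red) and all 382978 sites (open squares). The red points lie right of the squares in 21 of 22 deaminase libraries on the left and left of them in 22 of 22 on the right, and controls stay at the bottom of both scales.

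Most splicing-gene sites were edited by few constructs. Exactly 1 deaminase library called 1688 sites, 29.8% against 36.5% of all sites, and 11 or more libraries called 467 sites, 8.25% against 6.63% of all sites. The mean gain of a site, its share averaged over the 22 deaminase libraries minus the untransfected mean, had a median of 1.02 percentage points, against 2.6 over all sites. Among the 6 symbol groups the median gain was highest for PRPF, at 1.80 points, and SF3A, at 1.75, followed by SRSF at 1.09, SF3B at 0.961, SNRP at 0.771 and HNRNP at 0.687. The genes with the most sites called in their groups were HNRNPU with 300 sites, PRPF8 with 267, SF3A1 with 254, SF3B3 with 223, SRSF1 with 172 and SNRPB with 100. Those of SNRPB were the densest, with 41.8% of the exonic adenosines of its chosen transcript listed, against a median of 8.59% over genes.

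A gain of 20 points or more was reached by 33 splicing-gene sites in 23 genes, 0.583% of them against 1.51% of all sites. Of these, 19 were coding and 13 lay in 3′ UTRs as annotated, and 12 changed an amino acid. Among the 13, the sites of SRSF3, SRSF7 and SRSF10 lay in exons of no protein-coding transcript. Tyrosine-to-cysteine changes made up 6 of the 12, in 5 genes. PRPF8 led with Y794C, at 33.9 ± 23.8 points (SD over 22 libraries), followed by a 3′ UTR site of HNRNPA3 (chr2:177221572) at 32.2 ± 15.5 and PRPF8 A786A at 32.2 ± 23.4. SNRPB R112R gained 30.7 ± 16.6 points, a 3′ UTR site of SF3A1 (chr22:30334405) 29.6 ± 21.1 and a 3′ UTR site of SF3B3 (chr16:70573546) 28.6 ± 14.9. PRPF6, a bridging protein of the tri-snRNP, gained 28.0 ± 16.2 points at Y882C (chr20:64032016), and PRPF8 Y756C 27.7 ± 17.9. The next largest were a 3′ UTR site of HNRNPU (chr1:244853826) at 26.2 ± 18.0, PRPF38B A20A (chr1:108692651) at 25.7 ± 23.4, HNRNPUL1 Y717C (chr19:41304149) at 25.2 ± 13.0 and the SRSF3 alternative exon at 25.0 ± 18.6. The SDs span all constructs and were large beside the means. Among the 33 was another 3′ UTR site of SF3B3 (chr16:70574579), at 21.0 ± 13.1 points and called in 4 libraries. Its share was also 22.2% to 42.3% with the guides alone. HNRNPA3 has 16 annotated pseudogenes, so reads of its 3′ UTR could be shared with copies.

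All 22 deaminase libraries called 14 splicing-gene sites, 0.247% against 0.13% of all sites, in 7 genes. They included SNRPB R112R, HNRNPUL1 P704P, Q709R and Y717C, HNRNPU T191A and Q205R, and sites of SRSF2 and HNRNPA2B1. PRPF19, a ubiquitin ligase of the spliceosome, had both Y207C (chr11:60901317; 23.5 ± 12.8 points) and S220G, 38 nt away, among them (19.3 ± 10.8 points). SRSF6 had a 5′ UTR site (chr20:43457962; 20.2 ± 13.3 points). At SNRPB R112R the lowest share in any deaminase library was 4.51% and the highest 56.8%, whereas the controls lay between 0.0675% and 0.278%.

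**Figure D2:**
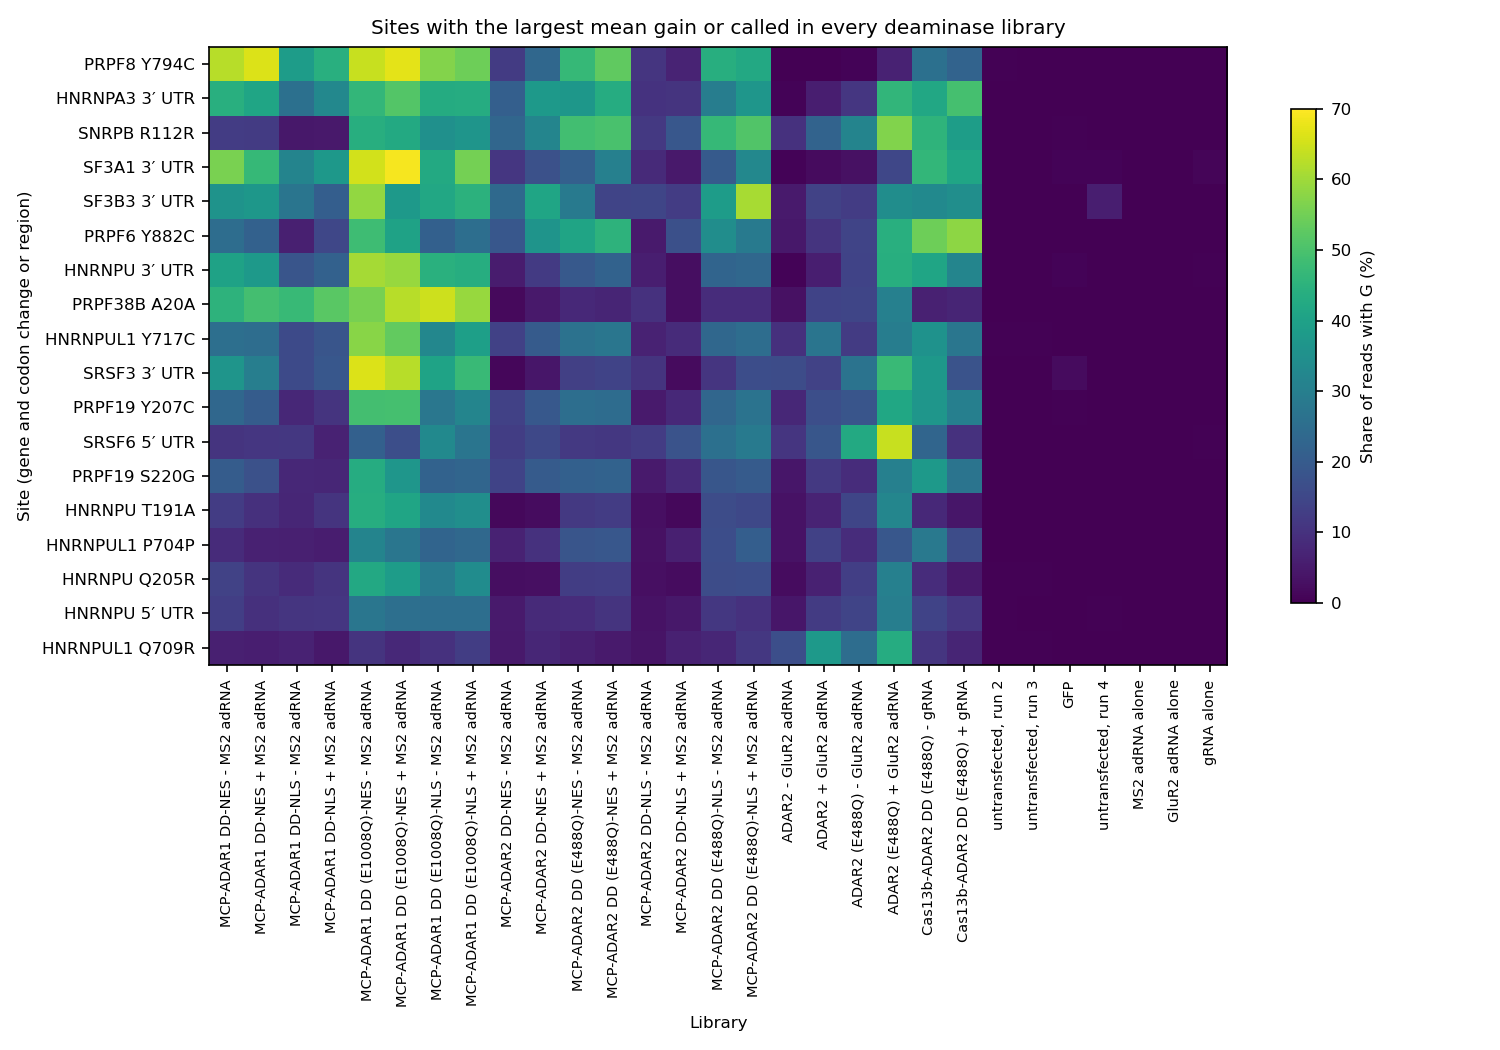
Share of reads with G (colour, 0 to 70%) at 18 sites (rows) across the 29 libraries (columns). The rows are the 10 largest mean gains, at most 1 per gene, and the 10 largest gains among sites called in all 22 deaminase libraries, some sites being in both. SNRPB R112R is at 4.51% or more in every deaminase library, whereas PRPF8 Y794C is at 0% to 6.59% in the 4 full-length ADAR2 libraries, and control columns are near 0 apart from SF3B3 in 1 untransfected run.

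The ADAR1 fusions edited splicing messages more than the ADAR2 fusions. The mean share over the 5661 sites was 3.65% across the 8 MCP-ADAR1 libraries and 1.05% across the 8 MCP-ADAR2 libraries. In limma's test on arcsine-transformed shares, fitted and adjusted over all 382978 sites, 3935 splicing-gene sites in 66 genes were lower with ADAR2 (69.5%, against 66% of all sites) and 106 sites in 40 genes were higher (1.87%, against 2.6%). The median difference was -1.23 points for splicing-gene sites and -2.68 for all sites. The difference had the same sign in all 8 matched pairs at 2230 of the lower and 44 of the higher sites. In a fixed list of 61 other splicing genes, with 4598 sites, 3329 were lower and 101 higher.

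At SNRPB T143A the 8 MCP-ADAR1 shares were 54.6% and 54.9% (wild type, NES, without and with guide), 38.4% and 41.7% (wild type, NLS), 72.7% and 74.3% (E1008Q, NES) and 64.0% and 63.8% (E1008Q, NLS). The 8 MCP-ADAR2 shares ran from 0% to 0.504% except for 6.72% with MCP-ADAR2 DD-NLS without guide. The groups did not overlap, and the difference was -57.0 ± 14.6 points (SD, 8 pairs; limma adjusted p = 4.42e-07). At SF3A1 Q517R, in the largest subunit of SF3A, MCP-ADAR1 gave 45.4% to 69.8% with a median of 60.6%, and MCP-ADAR2 gave 1.05% to 12.1% with a median of 5.76%. The difference of -54.6 ± 9.59 points was again without overlap (limma adjusted p = 3.59e-07). PRPF38B A20A differed by -47.9 ± 6.2 points (limma adjusted p = 1.98e-07), and the exons annotated for nonsense-mediated decay of SRSF10 (chr1:23978071) and SRSF7 differed by -53.1 ± 20.2 and -40.2 ± 16.9 points. MCP-ADAR1 reached 81.2% at SRSF10 and 68.4% at SRSF7, where MCP-ADAR2 reached 15.4% and 20.0%.

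The reverse order was seen at fewer sites. PRPF31 K117R (chr19:54122524), where an antisense gene overlaps, was higher by 16.9 ± 8.64 points, and its reads could come from either gene. SNRPB A154A gave 2.22% to 6.49% with MCP-ADAR1. With MCP-ADAR2 wild type it gave 11.5% and 11.9% (NES) and 3.85% and 7.52% (NLS), and with E488Q 27.3%, 26.4%, 25.2% and 29.3%. The groups overlapped only through MCP-ADAR2 DD-NLS without guide, at 3.85%, and the difference was 13.2 ± 9.11 points (limma adjusted p = 0.000221; 0.0573 with NLS libraries alone). HNRNPU Q172R gave 0.280% to 2.41% with MCP-ADAR1 and 3.15% to 22.4% with MCP-ADAR2 (12.8 ± 7.45 points; limma adjusted p = 6.83e-06). A 3′ UTR site of SF3B3 (chr16:70572761) was higher by 10.5 ± 7.55 points (limma adjusted p = 0.0005; 0.0541 with NLS libraries alone). This SF3B3 site was called in 1 deaminase library. HNRNPU T191A, in the same exon as Q172R, was lower with ADAR2, by -16.2 ± 10.0 points (limma adjusted p = 1.46e-05).

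Of the 3 printed SNRPB sites, R112R was edited by both enzymes. MCP-ADAR1 gave 4.51% to 43.8% and MCP-ADAR2 11.5% to 51.0%, with overlapping ranges and a difference of 11.3 ± 4.82 points in favour of ADAR2 (limma adjusted p = 0.000732). Along 126 nt of one message, an ADAR1-favoured site therefore lay between one edited by both and one favoured by the ADAR2 fusions. The 2 Cas13b-ADAR2 DD (E488Q) libraries gave 45.5% and 38.9% at R112R, 0.536% and 0.0704% at T143A, and 0.710% and 0.479% at A154A. At HNRNPU Q172R they gave 0.201% and 0%. Their low shares at A154A and Q172R stand against 19.9% to 29.3% in the MCP-ADAR2 DD (E488Q) libraries, which carry the same domain. This comparison has 1 library a condition and was not tested.

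**Figure D3:**
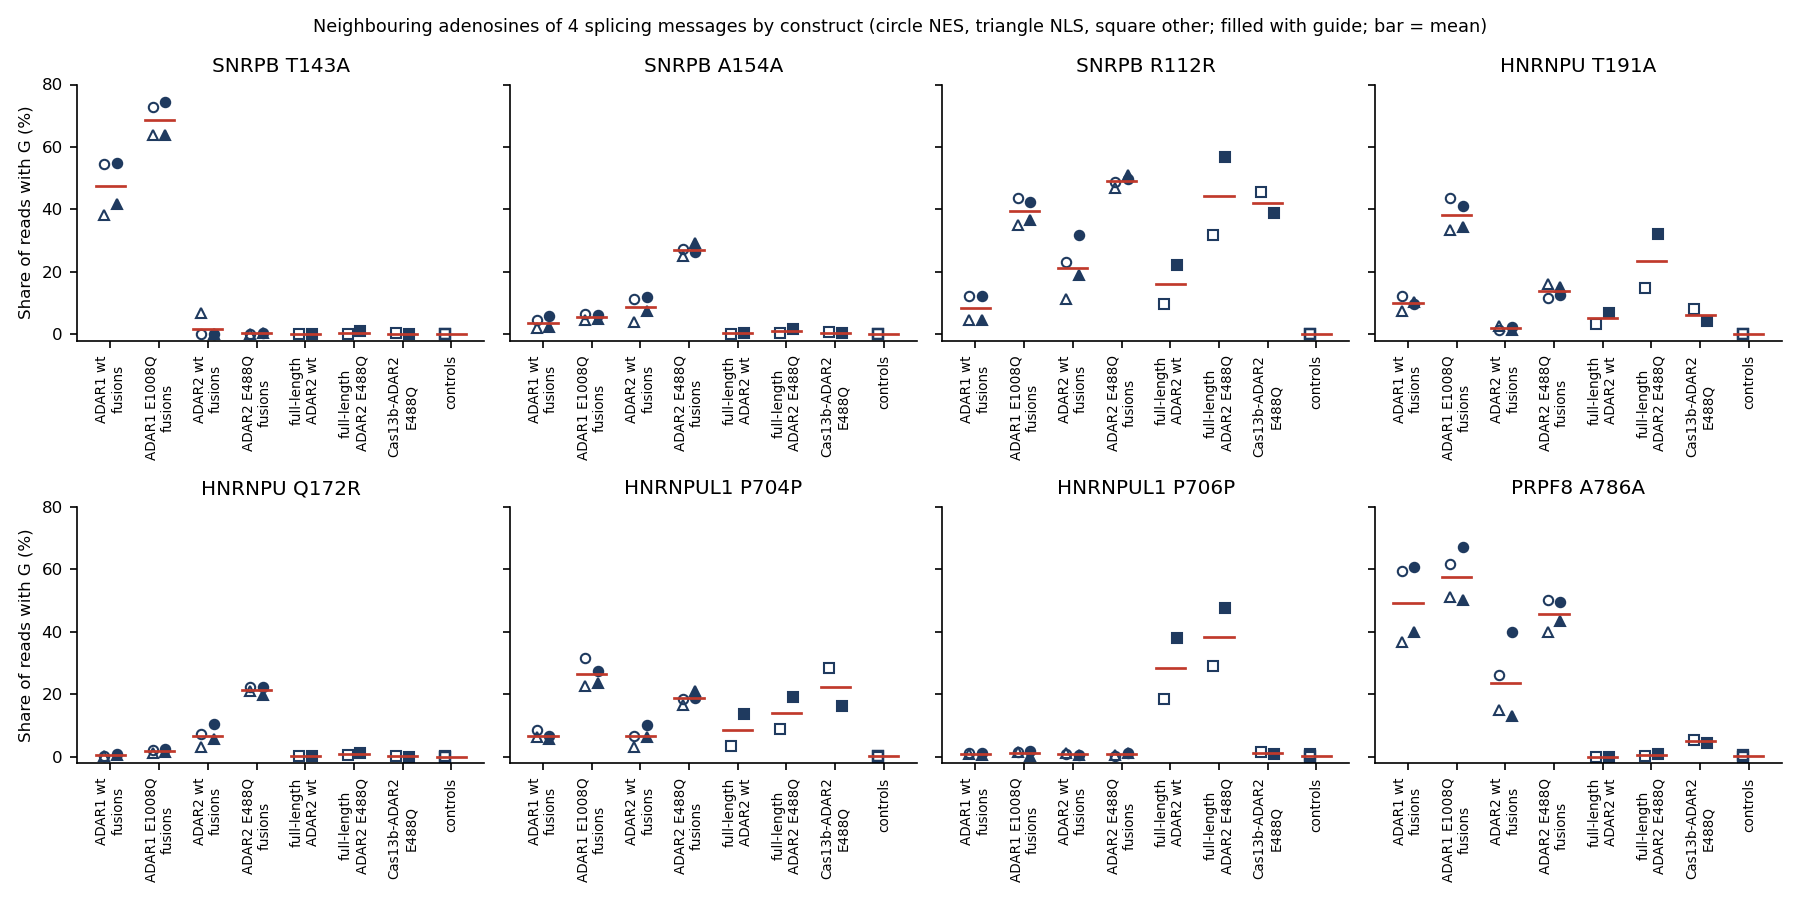
Share of reads with G (percent) at 8 sites of SNRPB, HNRNPU, HNRNPUL1 and PRPF8, by construct (circles NES, triangles NLS, squares other constructs, filled symbols with guide, bars the mean). T143A is highest with MCP-ADAR1 DD (E1008Q), A154A and Q172R with MCP-ADAR2 DD (E488Q), and P706P with full-length ADAR2.

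The hyperactive substitution raised editing of splicing messages. The mean share rose from 1.56% over the 8 wild-type MCP libraries to 3.14% over the 8 with E1008Q or E488Q. limma called 1865 sites in all 66 genes higher (32.9%, against 39.7% of all sites) and 69 in 36 genes lower (1.22%, against 0.72%). The same sign held in all 8 pairs at 998 of the higher and 19 of the lower sites. The share of sites called higher was 49.8% for SF3A, 41.8% for PRPF, 37.4% for SF3B, 32.6% for SNRP, 27.9% for HNRNP and 27.4% for SRSF. By region it was 36.7% in coding sequence, 39.9% in 5′ UTRs and 21.2% in 3′ UTRs. In the list of other splicing genes, 1734 sites were higher and 43 lower.

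SNRPB R112R rose the most among sites with 1 sign in all 8 pairs. Wild-type fusions gave 4.51% to 32.0% with a median of 12.3%, and the hyperactive ones 35.2% to 51.0% with a median of 45.3%, without overlap. The difference was 29.4 ± 5.39 points (SD, 8 pairs; limma adjusted p = 8.35e-06). PRPF8 Y756C (chr17:1676626) lay between 9.14% and 26.2% in the wild-type libraries and between 37.2% and 56.1% in the hyperactive ones (28.9 ± 7.28 points; limma adjusted p = 1.5e-05). SF3A1 D540G (chr22:30338913), 69 nt from Q517R, rose by 25.6 ± 12.5 points, and HNRNPUL1 N848S (chr19:41306537) by 24.5 ± 10.4. HNRNPA1L2 V45V (chr13:52642627) rose by 27.9 ± 11.6 points. This gene is a near copy of HNRNPA1, which has 74 annotated pseudogenes, so its reads are of uncertain origin.

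A few sites fell with the hyperactive domain. HNRNPH1 G378G (chr5:179617034), in a protein that binds runs of guanosine, gave 0.383% to 17.9% with a median of 5.79% in the wild-type libraries and 0% to 3.13% with a median of 0.385% in the hyperactive ones. The ranges overlapped, and the difference was -7.03 ± 6.24 points (limma adjusted p = 0.000259; 0.0685 with NLS libraries alone). A 3′ UTR site of SRSF3 (chr6:36602676) gave 2.76% to 10.8% and 0.865% to 3.71% (-4.38 ± 3.10 points; limma adjusted p = 0.00148; 0.0872 with NLS libraries alone). PRPF38A K280R (chr1:52414851) and HNRNPD E233E (chr4:82357367) were lower, at -4.47 ± 3.83 and -3.88 ± 4.73 points, with limma adjusted p of 0.00517 and 0.0184. Both calls were lost with NLS libraries alone, at limma adjusted p of 0.118 and 0.163. With NES libraries alone HNRNPD was lost as well, at a limma adjusted p of 0.132, and also on untransformed shares, at 0.0533.

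The effect of the substitution differed between enzymes at some sites. limma's interaction term, adjusted over all sites, was more positive in ADAR2 at 16 splicing-gene sites (0.283%, against 0.248% of all sites) and more positive in ADAR1 at 205 (3.62%, against 3.44%). SNRPB A154A, HNRNPU Q172R and PRPF8 Y794C were among the 16. At PRPF8 Y794C, MCP-ADAR1 gave 38.7% to 66.3% as wild type and 54.7% to 67.0% as E1008Q. MCP-ADAR2 gave 7.02% to 23.2% as wild type and 42.1% to 53.0% as E488Q.

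Localisation had a weaker contrast. The mean share was 2.93% in the 8 NES libraries and 1.77% in the 8 NLS libraries. limma called 98 splicing-gene sites in 41 genes lower with NLS (1.73%, against 3.76% of all sites) and 0 higher (0.0397% of all sites). An unadjusted p under 0.05 was found at 1311 of the 5661 sites, and at 115541 of all 382978. PRPF8 A786A gave 26.2% to 67.1% with NES and 12.9% to 51.2% with NLS, with overlapping ranges (-15.7 ± 7.24 points; limma adjusted p = 0.0282). PRPF6 Y882C gave 19.1% to 48.2% and 4.97% to 34.4% (-15.5 ± 6.72 points; limma adjusted p = 0.0242). SF3B3 K109R (chr16:70529128), in a propeller-shaped protein of SF3B, gave 12.9% to 33.8% and 1.07% to 22.7% (-13.2 ± 7.10 points; limma adjusted p = 0.0231). HNRNPA1L2 V45V and the HNRNPA3 3′ UTR site were lower by -14.6 ± 12.4 and -11.3 ± 7.82 points (limma adjusted p = 0.0339 and 0.0481). Each of these 5 calls was lost under some alternative, and the count fell to 4 without MCP-ADAR1 DD-NES without guide and to 0 on untransformed shares.

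The MS2 adRNA made no detectable difference at any splicing-gene site. The mean share was 2.29% without and 2.40% with it. limma called 0 sites in either direction, against 0.000783% of all sites higher and 0% lower, and 104 splicing-gene sites had an unadjusted p under 0.05, against 11666 of all 382978. The lowest adjusted p was 0.676. The median difference was 0.0129 points, against 0.064 over all sites.

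Full-length ADAR2 and the MCP fusions of its domain edited different sites of the splicing genes. The 4 full-length libraries averaged 1.65% and the 8 MCP-ADAR2 libraries 1.05%. With NES and NLS fusions of the same variant and guide state averaged, limma called 346 sites in 50 genes higher with the full-length enzyme (6.11%, against 9.88% of all sites) and 305 in 50 genes lower (5.39%, against 6.16%). All 4 comparisons had the same sign at 322 and 298 of them. SRSF had 82 sites higher and 38 lower (8.34% and 3.87%), and HNRNP 156 and 99 (6.52% and 4.14%). SNRP had 27 and 14 (7.28% and 3.77%), and SF3A 20 and 43 (4.93% and 10.6%). SF3B had 20 and 35 (3.46% and 6.06%), and PRPF 41 and 76 (4.41% and 8.18%). In each symbol group the percent higher lay below the 9.88% of all sites. In 5′ UTRs 47 sites were higher and 11 lower (17.0% and 3.99%), and in 3′ UTRs 108 and 32 (7.80% and 2.31%). In coding sequence 174 were higher and 262 lower (4.39% and 6.61%). The shares of all sites by region were not taken. The 3′ UTR counts include sites of transcripts annotated for nonsense-mediated decay. The full-length and MCP libraries also differed in the guide (GluR2 or MS2 adRNA), which cannot be told apart from the form of the enzyme where a guide was present. The count fell to 371 without ADAR2 (E488Q) without guide and to 97 on untransformed shares.

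HNRNPUL1 P706P showed the full-length preference most clearly in coding sequence. Full-length ADAR2 gave 18.4% and 38.1% as wild type (without and with guide) and 28.9% and 47.6% as E488Q. The 8 MCP-ADAR2 libraries gave 0.262% to 1.29%, the 8 MCP-ADAR1 libraries 0.327% to 1.69%, and the Cas13b libraries 1.41% and 0.889%. The untransfected runs lay between 0.133% and 0.805%, so the domain fusions were at or near background where the full-length enzyme edited (32.4 ± 12.4 points over 4 comparisons; limma adjusted p = 0.000467). Q709R, 8 nt downstream (chr19:41304125), was also higher, at 16.9%, 37.8%, 25.0% and 43.2% (24.2 ± 10.5 points; limma adjusted p = 0.00167). P704P, 6 nt upstream, gave 3.44%, 13.6%, 8.77% and 19.1% with the full-length enzyme and 3.17% to 20.9% with MCP-ADAR2, which did not differ beyond the spread (-1.41 ± 5.84 points; limma adjusted p = 0.710). Y717C did not pass the test either (0.767 ± 10.6 points; limma adjusted p = 0.934).

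The HNRNPH1 noncoding exon, read on a retained-intron transcript, had the largest excess with the full-length enzyme. The site was called in 3 deaminase libraries. Its 4 shares were 12.2%, 34.5%, 72.0% and 89.8%, in the same order, against 0% in 8 of 8 MCP-ADAR2 libraries and in 7 of 7 controls (52.1 ± 35.2 points; limma adjusted p = 0.00341). MCP-ADAR1 DD (E1008Q) gave 4.17% to 9.76% there. Also higher were 3′ UTR sites of SRSF1 (chr17:58004245), at 27%, 34.6%, 40.9% and 71.6%, and of SF3B3 (chr16:70575442), at 26.7%, 38.5%, 50% and 50% (37.9 ± 18.8 and 32.6 ± 6.6 points; limma adjusted p = 0.00141 and 0.00189). The SRSF1 site was called in 11 deaminase libraries and the SF3B3 site in 1. SRSF11, in a noncoding exon (chr1:70230453), was higher by 35.5 ± 33.7 points (limma adjusted p = 0.0124; 0.0894 on untransformed shares). The SRSF11 site was called in 4 deaminase libraries.

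The opposite order was as marked. PRPF8 A786A gave 0%, 0%, 0.329% and 0.760% with full-length ADAR2. MCP-ADAR2 wild type gave 26.2% and 39.8% (NES) and 15.0% and 12.9% (NLS), and MCP-ADAR2 E488Q 50.2%, 49.6%, 39.9% and 43.3%, without overlap (-34.4 ± 12.8 points; limma adjusted p = 0.000394). The Cas13b libraries lay between, at 5.49% and 4.42%. Its neighbour Y794C, 23 nt downstream, gave 0%, 0%, 0.617% and 6.59% with the full-length enzyme (-28.1 ± 17.2 points; limma adjusted p = 0.00122), and 25.7% and 22.4% with Cas13b. HNRNPA2B1, whose 3′ UTR site (chr7:26191047) gave 0% to 4.25% with the full-length enzyme and 20.2% to 49.0% as means of the matched fusions, was lower by -36.5 ± 11.4 points (limma adjusted p = 0.000983). A 3′ UTR site of SF3B3 (chr16:70573276; -18.7 ± 4.21 points), SNRPB A154A (-17.1 ± 10.2) and HNRNPU Q172R (-13.4 ± 8.21) were also lower, with limma adjusted p of 0.00224, 0.0022 and 0.0016. The SF3B3 site was called in 1 deaminase library, A154A in 17 and Q172R in 13. Full-length ADAR2 gave 0.283% to 1.65% at A154A and 0.0903% to 1.14% at Q172R.

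**Figure D4:**
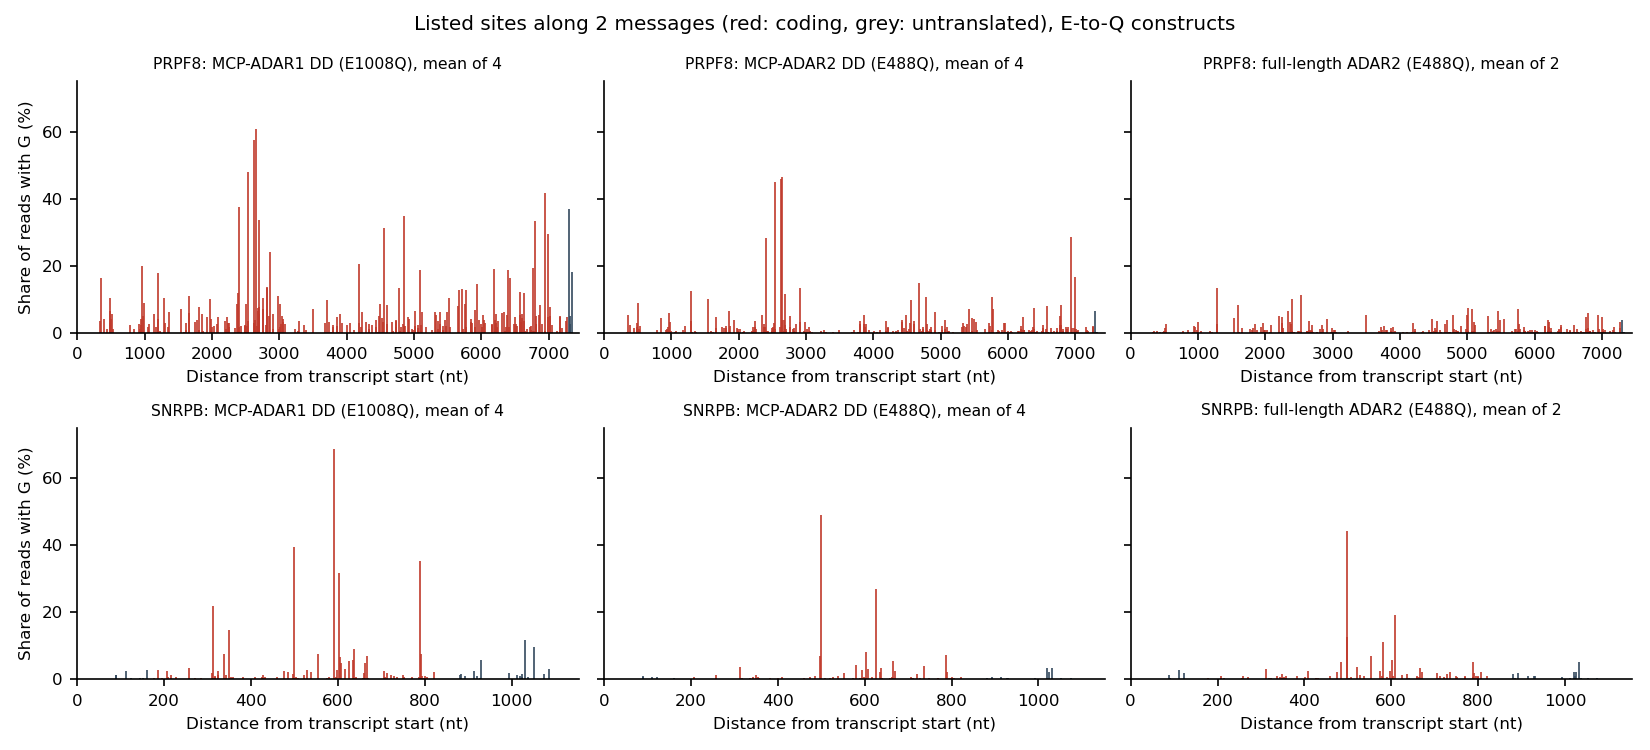
Mean share of reads with G (percent) along the PRPF8 and SNRPB transcripts (distance from the transcript start in bases) with MCP-ADAR1 DD (E1008Q) (mean of 4 libraries), MCP-ADAR2 DD (E488Q) (mean of 4) and full-length ADAR2 (E488Q) (mean of 2). Peaks stand at different positions of the same message for different constructs, with the SNRPB T143A peak seen with MCP-ADAR1 alone among these 3.

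Counts by gene showed the same contrasts. HNRNPU had 205 of 300 sites lower and 6 higher with ADAR2 than with ADAR1, and PRPF8 172 and 8 of 267. SF3A1 had 203 and 2 of 254, HNRNPUL1 176 and 5 of 258, and SNRPB 68 and 8 of 100. Of all sites 66% were lower and 2.6% higher, so these counts are not read as traits of the genes. With full-length ADAR2 against the fusions, PRPF8 had 1 site higher and 32 lower and SF3A1 2 and 30. Other genes went the other way, with 30 higher and 0 lower of 112 in HNRNPA0, and 25 and 1 of 115 in HNRNPM. SRSF5 had 20 and 0 of 52, HNRNPF 15 and 1 of 82, HNRNPDL 12 and 0 of 92, and SRSF8 12 and 0 of 38. Of all sites 9.88% were higher and 6.16% lower with the full-length enzyme.

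Editing of coding sequence would mostly recode. On the 5634 sites that were an adenosine of the transcript strand, 3959 (70.3%) lay in coding sequence, against 65.7% of sites in exons of 1 protein-coding gene. The 3′ UTRs held 1371 (24.3%, against 29.6%), the 5′ UTRs 275 and noncoding exons 29. Region was read on 1 transcript per site, so the 3′ UTRs include sites found on transcripts annotated for nonsense-mediated decay. The 29 are therefore fewer than the 112 sites in exons of no protein-coding transcript. An A-to-G change would alter the amino acid at 2954 coding sites, 74.6% against 73.9%. The most frequent changes were lysine to arginine at 553 sites (18.7% of recoding sites, against 20.2%), glutamine to arginine at 321, tyrosine to cysteine at 311 (10.5%, against 8.22%), arginine to glycine at 300 (10.2%, against 6.66%) and serine to glycine at 247. In the SRSF genes, arginine to glycine made up 29.6% and serine to glycine 15.8% of recoding sites. The codon composition of these genes was not set beside these shares.

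Dipeptides of arginine and serine in either order (RS or SR), the hallmark of SR proteins, held 143 of the 504 SRSF coding sites (28.4%), in 11 genes. Of these, 130 were recoding, 84 of arginine to glycine and 46 of serine to glycine. Their median gain was 1.10 points, against 0.769 for the other SRSF coding sites. How many SRSF coding adenosines lie in such dipeptides was not counted, so the 28.4% is not read as a preference for them. The largest gains were at SRSF4 R487G (12.6 ± 12.1 points, called in 14 libraries) and SRSF4 S257G (chr1:29149126; 10.5 ± 11.1, called in 12). SRSF6 R329G gained 8.10 ± 5.13 points and was called in 17. Outside the SRSF genes, HNRNPK S302G (chr9:83971931), in an SR pair that follows a glycine, gained 9.59 ± 8.89 points and was called in 21 libraries.

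Stop and start codons held 24 and 5 of the sites. The median gain was 0.692 points at stop codons and 0.360 at start codons, and 10 of the 24 and 1 of the 5 lay above the median of all splicing-gene sites. At the stop codons 13 sites would give tryptophan. The stop site with the largest gain, in SNRPB2 (chr20:16741005), leaves the codon a stop and gained 7.00 ± 8.85 points. Both adenosines of the SNRPC stop codon were listed, with gains of 2.76 and 2.72 points. SNRPC has 18 annotated pseudogenes. Of the start codons, PRPF3 M1V gained 1.51 points, PRPF19 M1V 1.00 and SRSF6 M1V 0.360.

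The bases next to the edited adenosine were not those of adenosines at large. A 3′ G followed 53.4% of the called splicing-gene sites, against 27.7% of all adenosines in the same transcripts, and a 5′ G preceded 11.8%, against 26.2%. A 5′ T preceded 24.8%, against 18.8%, and the triplet TAG (transcript strand, edited base in the middle) made up 8.13%, against 3.76%. By library, the share with a 3′ G ranged from 53.9% to 69.7%. Of sites higher with ADAR2 fusions, 40.6% had a 5′ C and 1.89% were in TAG, against 25.1% and 9.25% of sites higher with ADAR1 fusions. Sites raised by the hyperactive domain had a 3′ G at 47.0%, against 63.8% of those it lowered. These shares describe the sites and carry no test.

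Sites in exons of no protein-coding transcript had higher mean shares than the other splicing-gene sites, a split chosen after values were seen. Such exons held 112 sites in 16 genes, 53 of them in 7 SRSF genes and 47 in HNRNP genes, with 75 in transcripts annotated for nonsense-mediated decay and 78 in retained-intron transcripts. HNRNPH1 held 23 of them, HNRNPU 19, SRSF5 15, SRSF3 11 and PRPF39 10. Their mean share was above that of the other splicing-gene sites in 22 of 22 deaminase libraries, from 1.11% to 17.9% with a median of 3.08%, against 0.455% to 6.30% with a median of 1.54%. One of the 112, HNRNPA2B1 chr7:26195843, had a mean share of 76.4% in untransfected cells and was called in no library. Without sites at 5% or more in untransfected cells, the remaining 111 averaged 0.535% to 17.9% with a median of 2.54%, against 0.433% to 6.27% with a median of 1.52% for the 5544 others. They were then higher in 21 of 22 libraries, the exception being MCP-ADAR2 DD-NES without guide. In the untransfected runs these 111 averaged 0.0578% and the others 0.111%. The highest value, 17.9%, was that of ADAR2 (E488Q) with the GluR2 adRNA. The 112 sites were called less often, a median of 5.36% by library against 11.7%. Full-length ADAR2 was higher than the fusions at 30 of them (26.8%, against 9.88% of all sites) and lower at 3 (2.68%, against 6.16%). ADAR2 (E488Q) with the GluR2 adRNA called 71 of the 112 sites (63.4%), and no other library called more than 34. How sites came to be listed is not known. Sites listed only through this library would raise its mean share and this excess, which was not tested. Neither value is therefore read as a trait of these exons. By enzyme 1 of the 112 was higher and 58 lower with ADAR2, against 2.6% and 66% of all sites. By variant 20 were higher and 0 lower, against 39.7% and 0.72%. As parts of the 112, the 58 and the 20 lie below the levels of all sites.

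**Figure D5:**
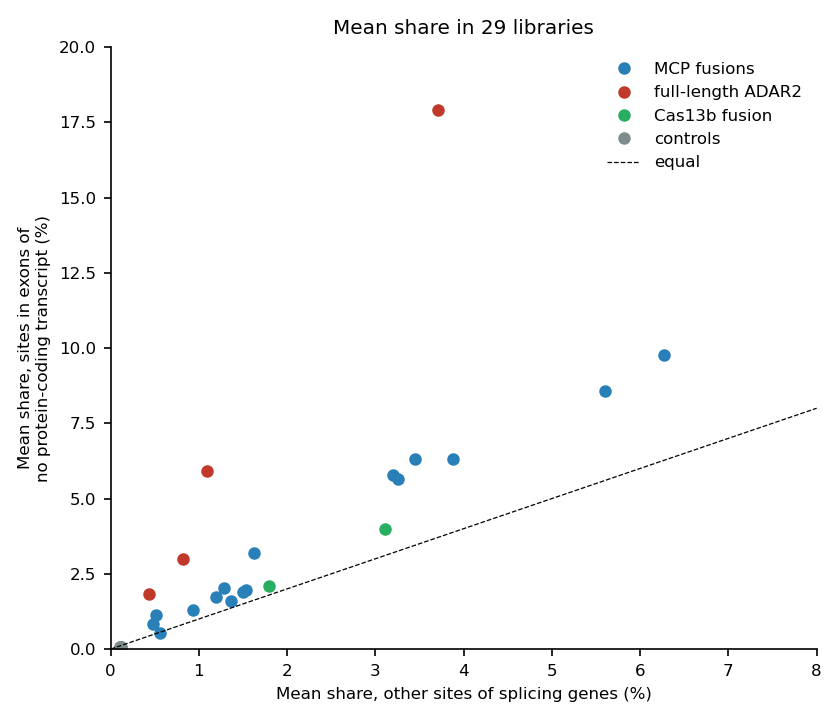
Mean share of reads with G (percent) over the 111 sites in exons of no protein-coding transcript and over the 5544 other splicing-gene sites, in each of the 29 libraries, without sites at 5% or more in untransfected cells. The 111 sites lie above the dashed line of equality in 21 of 22 deaminase libraries, with the widest gap in ADAR2 (E488Q) with the GluR2 adRNA at 17.9%. That library also called the most of the 112 sites to which the 111 belong.

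Untransfected cells had a share of 5% or more at 6 splicing-gene sites. The highest was in a noncoding exon of HNRNPA2B1 (chr7:26195843), read on a retained-intron transcript, with 62.5%, 86.7% and 80% in the 3 runs. No deaminase library called it. HNRNPA1L2 Q300R (chr13:52643391) gave 42.9%, 37.8% and 32.4% and was not called either, and reads of copies of HNRNPA1 could map there. SF3B3 had 3 such 3′ UTR sites, at chr16:70574740, chr16:70574579 and chr16:70574547, with mean shares of 15.2%, 8.38% and 6.04%. With the MS2 adRNA, GluR2 adRNA and gRNA alone, chr16:70574740 gave 11.5%, 24.4% and 17.2%. In the same order chr16:70574579 gave 22.2%, 42.3% and 31.8%, and chr16:70574547 gave 13.6%, 17.2% and 28.6%. GFP gave 4.76%, 13.3% and 0% at the 3 sites in that order. The guides alone thus lay above the untransfected mean at chr16:70574579 and chr16:70574547, and GFP only at chr16:70574579. At chr16:70574740 the GluR2 adRNA and the gRNA lay above it and the MS2 adRNA below, while 1 untransfected run reached 23.1%. SNRPD3, which encodes a core Sm protein, had 1 (chr22:24572614) at 6.32%.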

How the data were processed

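Per the submitters' processing notes, the tools were STAR 2.6.0c, bcl2fastq 2.18.0.12 and SAMtools, with build GRCh38.p12. Aligner settings, site filters and the test behind the p-values were not given in the sources used here. The authors deposited 2 tables over the same 382978 sites, one of each site's fraction of reads with G and one of adjusted p-values. Fractions are printed as percent, and read depth is not in the tables, so its effect on a share could not be measured. The header of each table does not line up with its columns. Columns were read by their sample name, and 1 column of per-sample values without a sample name was not used. Of 139888 sites called in 1 deaminase library, 97.63% had their highest share in that library's column.

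Sites were placed in GENCODE 29 exons with Python 3.11.15, pandas 2.3.3 and numpy 2.4.6. Codons, regions and neighbouring bases were read on 1 transcript per gene, which held 5201 of the 5661 sites, and 24 sites were not an adenosine on the gene's strand. Sites outside that transcript were read on another of the gene, which could be one annotated for nonsense-mediated decay. Arcsine square roots of the fractions were tested with limma 3.58.1 (R 4.3.3, intensity trend, Benjamini-Hochberg over all sites, threshold 0.05). An additive model of enzyme, variant, localisation and guide used the 16 MCP libraries, and full-length ADAR2 was set against the fusions in 12 ADAR2 libraries. With 1 library per construct, the spread comes from the residuals of the model. On simulated data over 382978 sites, the enzyme fit recovered 14%, 56%, 80% and 88% of sites changed by 0.1, 0.2, 0.3 and 0.4 on the arcsine scale, and the full-length fit 2%, 24%, 44% and 60%. The simulated noise was independent and normal, and 50 sites were changed at each size. In the data, 66% of all sites were called lower by enzyme, so these recoveries do not give the sensitivity of the reported contrasts.

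Named sites were the 5 largest differences per contrast and direction among sites past the threshold with 1 sign in all pairs, at most 1 per gene. Added to these were the 10 largest gains, the 10 largest gains among sites called in all 22 libraries, sites with an untransfected share of 5% or more, up to 3 stop and 3 start codon sites, and the gene with the most called sites per symbol group. Other named sites neighbour these or were chosen after their values were seen. The sites of 1 gene that the rule names are not reported here. The genes and lists were chosen with earlier results of these data known. Alternatives covered the call rule, transformation, filter, threshold, model and each library left out.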

Additional observations from a re-analysis of the deposited data

Results flagged for a closer look

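For 6 named sites the effect of the hyperactive substitution differed between the ADAR1 and ADAR2 fusions by limma's interaction term, adjusted over all sites. PRPF8 Y794C (chr17:1676512) had an adjusted p of 0.0163, with effects of 7.81 ± 8.33 points in ADAR1 and 33.1 ± 2.39 in ADAR2 (SD, 4 pairs each). SNRPB A154A (chr20:2463186) had an adjusted p of 0.0239 in limma, with 1.74 ± 0.932 and 18.4 ± 3.73 points. HNRNPU Q172R (chr1:244863793) had an adjusted p of 0.0380 in limma, with 1.37 ± 0.562 and 14.8 ± 2.34 points. At these 3 sites the effect was larger in ADAR2.

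The other sites had the larger effect in ADAR1. In the HNRNPH1 noncoding exon (chr5:179619617) limma's adjusted p was 0.00257, with 6.89 ± 3.05 points in ADAR1 and 0 in ADAR2, where all shares were 0%. SRSF6 M1V (chr20:43458034) had a limma adjusted p of 0.00838, with 3.74 ± 1.35 and -0.169 ± 0.196 points. PRPF19 M1V (chr11:60906382) had a limma adjusted p of 0.0304, with 4.51 ± 1.02 and 0.0397 ± 0.165 points. At both start codon sites the effect in ADAR2 was near 0.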

How the results depend on the processing

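The counts of splicing-gene sites were 4041 by enzyme, 1934 by variant, 98 by localisation, 0 by guide and 651 by full-length against fusion. Restricting the fit to sites with a mean share of at least 1% gave 2475 by enzyme, and NLS libraries alone gave 1016. For the variant, a threshold of 0.01 gave 1066, NES libraries alone 450 and NLS libraries alone 574; the last settings have 8 of the 16 libraries. Localisation gave 0 at a threshold of 0.01, 0 on untransformed shares, 164 without the intensity trend and 181 with the enzyme-by-variant term. Full-length against fusion gave 186 at 0.01 and 97 on untransformed shares. A call that also needed 5 points above the untransfected mean lowered the median percent called per library from 11.6 to 5.43. The median of the libraries' mean shares was 1.56%, and became 1.55% for sites in exons of 1 gene, 1.84% over gene means and 1.54% for sites called in any library.

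Leaving out 1 library at a time gave 3746 to 4072 by enzyme, 1524 to 2069 by variant, 4 to 153 by localisation, 0 to 0 by guide and 371 to 606 for full-length against fusion. The localisation count moved by over 1.5 times with 12 of 16 libraries left out. It did not with MCP-ADAR2 DD-NES without guide (104), MCP-ADAR2 DD (E488Q)-NES without (139) or with guide (134), or MCP-ADAR2 DD (E488Q)-NLS with guide (109). The full-length count moved that far without ADAR2 (E488Q) without guide (371), MCP-ADAR2 DD (E488Q)-NLS with (395) or without guide (407), and MCP-ADAR2 DD (E488Q)-NES without guide (426). The count of libraries with a higher mean share in exons of no protein-coding transcript was 22, and 21 for sites with an untransfected share under 5%, an alternative chosen after seeing the data. Of the named sites, 8 of 10 by enzyme, 5 of 10 by variant, 0 of 5 by localisation and 9 of 10 by full-length against fusion kept their call under every alternative run, and 0 reversed. The cause of each lost call was not tested. The recoding share of coding sites was 74.6% (exact binomial 95% interval over sites 73.2% to 76.0%) and 74.6% on the longest coding transcript. The share of called sites with a 3′ G was 53.4% (52.1% to 54.7%) and 53.3% in exons of 1 gene only. Both intervals count sites as independent, although many sites lie in the same gene. They measure no spread between genes or libraries. No paired analysis was possible because each condition has 1 library, so the groups share fewer than 2 replicate numbers to block on, and the pairs given above match libraries by construct, within the additive fit. The p-values measure spread between constructs, not between cultures.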
